A study of Mus musculus with 8 samples.

Results

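*Trp53*, the gene of the tumour suppressor p53, and 9 of its direct target genes (*Mdm2*, *Mdm4*, *Cdkn1a*, *Ccng1*, *Trp53inp1*, *Sesn1*, *Zmat3*, *Phlda3* and *Aen*) were followed in the RNA-seq of WT and *Trim28*-/- Th17 cells. They were taken by gene symbol from a list of known pathway genes, drawn up with earlier results of these data known, and make up 10 of the 13704 genes named in the count tables. TRIM28 is a co-repressor that binds chromatin, and Th17 cells are helper T cells that secrete IL-17. The WT library came from wild type mice and the KO library from TRIM28fl/flxCD4cre mice, all of strain C57BL/6. In both, naive CD4+ T cells were kept for 3 days in 20 ng/ml IL-6 plus 0.5 ng/ml TGFβ, then stimulated again through CD3, and mRNA was sequenced. Cre driven by *Cd4* removes the floxed gene during T cell development, so the KO cells had lacked it before the culture began. The ages of the mice, the number of mice behind each library and whether the wild type mice carried Cre or the floxed allele are not given in the sources used here.

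p53 is a transcription factor that is kept scarce by MDM2, the ubiquitin ligase that marks it for breakdown, and is held inactive by the related protein MDM4. DNA damage and other stresses release p53, which then switches on genes that stop the cell cycle, repair DNA, lower metabolism or start apoptosis, and also *Mdm2* itself, which closes a feedback loop. TRIM28 is itself known as a partner of MDM2. The pathway acts mainly on p53 protein, which an mRNA count does not show. In T cells, p53 is known to restrain proliferation after stimulation through the antigen receptor.

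p53 binds a consensus made of a pair of 10-base elements, which were searched for here only as directly adjacent pairs. A search of the reference from 3000 bases before to 3000 bases after each gene's start found a match in *Cdkn1a*, *Ccng1* and *Zmat3*, with at most 2 mismatches and with the central C and G, and the A or T pair between them, intact in each element. The 3 matches are shown because they mark where p53 could contact these targets. They are read from RefSeq GRCm38.p6 on the strand of the gene, the capitals mark the 20-base match, and 10 flanking bases stand on each side in lower case.
Cdkn1a: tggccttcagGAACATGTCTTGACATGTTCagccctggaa
Ccng1: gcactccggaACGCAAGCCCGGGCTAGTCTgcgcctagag
Zmat3: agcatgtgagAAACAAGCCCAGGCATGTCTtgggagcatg
The *Cdkn1a* match (chr17:29090928-29090947, plus strand) had 1 mismatch, and its centre lay 42 bases upstream of the annotated gene start and 2832 bases upstream of the start of another transcript model. The *Ccng1* match (chr11:40754936-40754955, minus strand) had 1 mismatch and lay in an intron, 364 bases downstream of the start. The *Zmat3* match (chr3:32364331-32364350, minus strand) had 0 mismatches and lay in an intron 1324 bases downstream. A match of this kind was found for 3 of the 10 genes (30.0%) and for 534 of 13637 annotated genes of the count tables (3.92%). With at most 1 mismatch the shares were 30.0% and 0.902%, and within 1000 bases of the start they were 20.0% and 1.06%. Pairs with bases between the elements, or with a change at the central bases, were not searched for. A gene without a match may thus still hold a p53 site. The targets were chosen as known p53 targets, so an excess of such matches is part of what they are, and the search says nothing of p53 binding in these cells.

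The WT library held 6650066 reads on genes and the KO library 6185108, so that 3 reads corresponded to 0.451 and 0.485 counts per 1000000 reads (CPM). *Trim28* itself dropped from 4485 WT to 180 KO reads (674 and 29.1 CPM, log2 fold change -4.53). With 1 library per genotype, no difference below has a replicate check, no p-value can be given, and the reads compare the libraries and not the genotypes. Each log2 fold change is KO over WT, scaled to the library totals with 0.5 added to each count, and is followed by its exact (Clopper-Pearson) 95% interval. The intervals cover counting error only, and PCR copies were not collapsed by molecular identifiers, so reads are not independent molecules. Of 11 CD4 T cell markers, 11 had reads, with summed levels of 7212 CPM in the WT and 6262 CPM in the KO library. Of 9 Th17 markers, 8 had reads (*Il22* had 0 in both), and their sum was 1710 CPM in the WT and 535 CPM in the KO library, with 4 of 7 tested genes at least 2-fold lower. Of 20 markers of other cell types, 12 had reads, which summed to 31.1 and 23.4 CPM, and *Lyz2*, *Csf1r*, *Adgre1*, *Ncr1*, *Klrb1c*, *Siglech*, *Hbb-b1* and *Hba-a1* were at 0 in both libraries. In these bulk samples, fewer cells of a type and less RNA per cell cannot be told apart, and the part of the lower Th17 markers in the values below was not tested.

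None of the 10 genes was higher in the KO library beyond counting error, and *Trp53* itself was within it. *Trp53inp1* and *Mdm4* were more than 2-fold lower in KO, *Zmat3*, *Ccng1* and *Mdm2* were lower by a smaller amount, and *Trp53*, *Cdkn1a*, *Sesn1*, *Phlda3* and *Aen* had intervals that included 0. All 10 genes passed the filter of at least 10 reads over both libraries, and their reads summed to 6982 in the WT and 4595 in the KO library (1050 and 743 CPM).

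*Trp53* (chromosome 11 of GRCm38 from 69580348 to 69591873, plus strand, 12 exons) had 170 reads in the WT library (25.6 CPM, with an exact Poisson 95% interval from 21.9 to 29.7) and 184 in the KO library (29.7 CPM, from 25.6 to 34.4). The intervals of the levels overlapped, and the log2 fold change was 0.22 (from -0.09 to 0.53). The data therefore did not show a difference in *Trp53* mRNA, and a rise by more than 0.53 or a fall by more than 0.09 on the log2 scale lay outside the counting interval.

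Of the p53 inhibitors, *Mdm2* (chromosome 10 from 117688875 to 117710758, minus strand, 12 exons) had 1073 WT and 772 KO reads, or 161 and 125 CPM. It was 1.29-fold lower in KO (log2 fold change -0.37, from -0.51 to -0.24). *Mdm4* (chromosome 1 from 132986105 to 133030587, minus strand, 12 exons) had 801 and 319 reads, or 120 and 51.6 CPM. It was 2.33-fold lower, with a log2 fold change of -1.22 (from -1.42 to -1.03), which placed it at percentile 5.51 of all tested genes. Both inhibitors were thus lower, and *Mdm4* by more. The WT library held 1.34 *Mdm2* reads for each *Mdm4* read and the KO library 2.42, a difference of 0.85 on the log2 scale (from 0.62 to 1.09) that does not depend on how the libraries are scaled. Against p53, the KO library held more *Trp53* reads for each *Mdm2* read (log2 difference 0.59, from 0.25 to 0.93) and for each *Mdm4* read (1.44, from 1.08 to 1.81). Genes on the opposite strand overlap *Mdm4* in the annotation, and the strand setting of the counting was not stated, so reads from the partner cannot be set apart.

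Of the cell-cycle targets, *Cdkn1a*, which encodes the CDK inhibitor p21, lies on chromosome 17 from 29090979 to 29100722 (plus strand, 3 exons). It had 184 reads in the WT and 138 in the KO library (27.7 and 22.3 CPM), and its log2 fold change of -0.31 (from -0.64 to 0.02) included 0. *Ccng1*, which encodes cyclin G1 and lies on chromosome 11 from 40748552 to 40755309 (minus strand, 6 exons), had the most reads of the 10 genes, 2533 and 1791 (381 and 290 CPM as levels). It was 1.32-fold lower in KO (log2 fold change -0.40, from -0.48 to -0.31). The fold changes of *Ccng1* and *Mdm2* differed by 0.03 (from -0.14 to 0.19), within counting error. *Cdkn1a* and *Ccng1* each carried a consensus match with 1 mismatch, shown above.

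Of the targets tied to apoptosis and stress, *Trp53inp1* encodes a stress-induced nuclear protein that acts with p53 and in autophagy, on chromosome 4 from 11156441 to 11174379 (plus strand, 5 exons). It had 50 reads in the WT and 14 in the KO library (7.52 and 2.26 CPM) and a log2 fold change of -1.70 (from -2.70 to -0.85). It was thus the lowest of the 10 genes, at percentile 2.71 of all tested genes, but its few reads left a wide interval. *Phlda3*, an inhibitor of the survival kinase AKT on chromosome 1 from 135766085 to 135769134 (plus strand, 2 exons), had 346 and 325 reads (52.0 and 52.5 CPM) and a log2 fold change of 0.01 (from -0.21 to 0.24). *Aen*, a nuclease of apoptotic cells on chromosome 7 from 78895927 to 78911209 (plus strand, 4 exons), had 38 and 26 reads (5.71 and 4.20 CPM) and a log2 fold change of -0.43 (from -1.22 to 0.31). *Phlda3* was therefore at nearly the same level in both libraries, and the few reads of *Aen* left an interval that spans both directions.

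*Zmat3*, which encodes an RNA-binding zinc finger protein, lies on chromosome 3 from 32334792 to 32365665 (minus strand, 6 exons) and carries the match without a mismatch. It had 1744 reads in the WT and 992 in the KO library (262 and 160 CPM). It was 1.63-fold lower, a log2 fold change of -0.71 (from -0.82 to -0.60). *4930429B21Rik*, which overlaps it on the opposite strand, had 15 reads in each library. *Sesn1*, a sestrin that restrains mTORC1 and oxidative stress, on chromosome 10 from 41810574 to 41908436 (plus strand, 10 exons), had 43 and 34 reads (6.47 and 5.50 CPM). Its log2 fold change was -0.23 (from -0.93 to 0.45), so neither direction was shown for *Sesn1*.

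**Figure D1:**
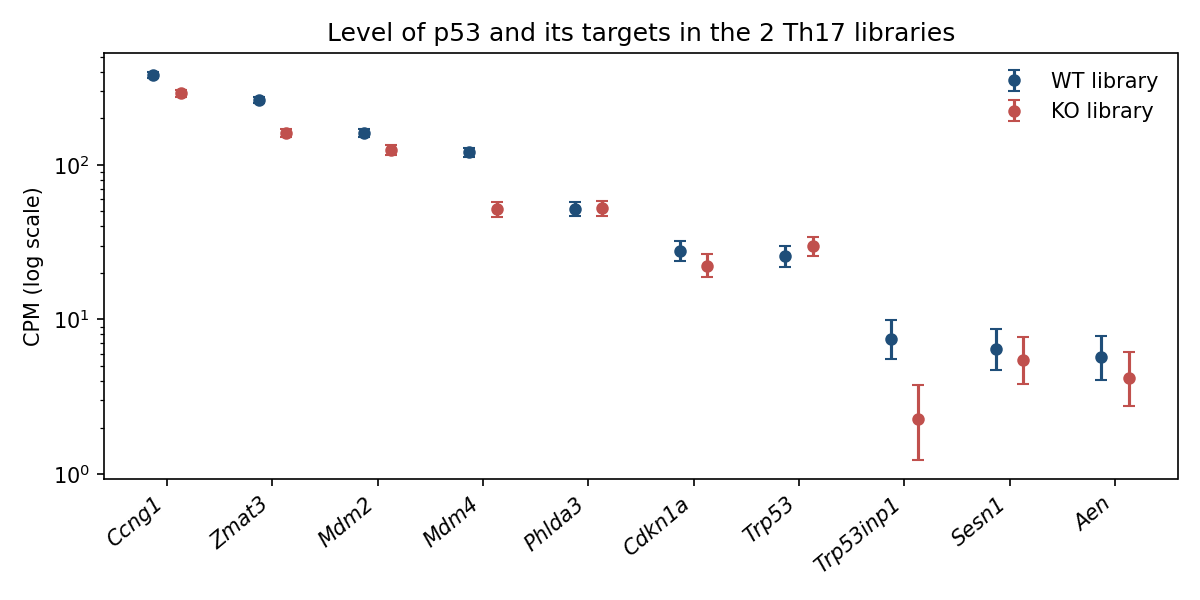
Level of each of the 10 genes in CPM (log scale) in the WT and the KO library, with exact Poisson 95% intervals that cover counting error only. The KO point lies below the WT point without overlap of the intervals for *Mdm2*, *Mdm4*, *Ccng1*, *Trp53inp1* and *Zmat3*, and the intervals overlap for the other genes.

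Read as a group, 2 of the 10 genes were called lower, that is, at least 2-fold lower with an interval below 0, and 0 were called higher. Among all 10881 genes tested, 6.07% were called lower and 2.78% higher. At 1.5-fold, 3 of the 10 were lower (*Zmat3* joined *Mdm4* and *Trp53inp1*), against 12.5% of all genes. Without a fold limit, 5 of the 10 had an interval below 0 and 0 an interval above 0, against 25.0% and 23.5% of all genes. The median log2 fold change was -0.38 for the 10 genes and -0.02 for all genes. The share on the lower side was larger among these 10 genes than among all genes, but the genes were chosen with earlier results of these data known and were not tested as a set, so the shares only describe them.

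**Figure D2:**
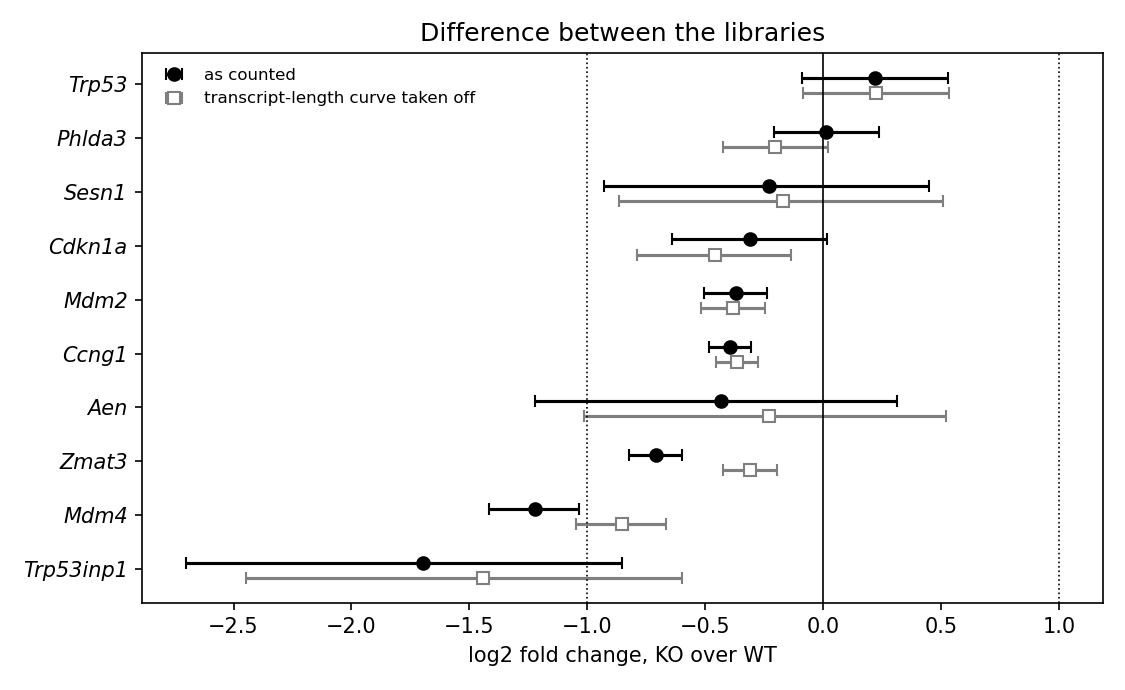
Log2 fold change (KO over WT) of each gene with its exact 95% counting interval, as measured and after the curve of fold change on transcript length was taken off. As measured, 5 intervals lie below 0 and 0 above it, against 25.0% and 23.5% of all genes. With the length curve taken off, 6 lie below 0, against 20.9% of all genes, and *Mdm4* moves from -1.22 to -0.85.

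Longer transcripts tended to be lower in the KO library. Across 10793 genes, length and log2 fold change had a Spearman's rho of -0.37, given as a description over genes that share the same libraries. The 4 genes of the pathway with the longest transcripts, *Zmat3* (7797 bases), *Mdm4* (7105 bases), *Trp53inp1* (5432 bases) and *Aen* (4956 bases), were also the 4 with the lowest log2 fold changes. A loess curve gave -0.40 as the usual log2 fold change at the length of *Zmat3* and -0.37 at that of *Mdm4*, but 0.22 at that of *Phlda3* (1435 bases). With the curve taken off, *Mdm4* stood at -0.85 (from -1.05 to -0.67), *Zmat3* at -0.31 (from -0.42 to -0.20) and *Trp53inp1* at -1.44 (from -2.45 to -0.60). These 3 genes therefore stayed below 0, and *Trp53inp1* alone stayed past 2-fold. *Cdkn1a*, with a transcript of 2080 bases, moved the other way, to -0.46 (from -0.79 to -0.13), and its interval no longer included 0. *Trp53* (0.22), *Mdm2* (-0.38) and *Ccng1* (-0.37) moved by less than 0.04, since their lengths lie near the median of all genes. *Phlda3* came to -0.20 (from -0.43 to 0.02).

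After this correction 1 of the 10 genes was called lower and 0 higher, where 4.98% and 2.76% of all genes were. An interval below 0 was found for 6 of the 10 and above 0 for 0, against 20.9% and 23.5% of all genes. The median was -0.34 for the 10 genes and 0.00 for all. Whether the length trend arose in the library preparation or in the cells was not tested, and with 1 library per genotype it cannot be told apart from the genotype.

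**Figure D3:**
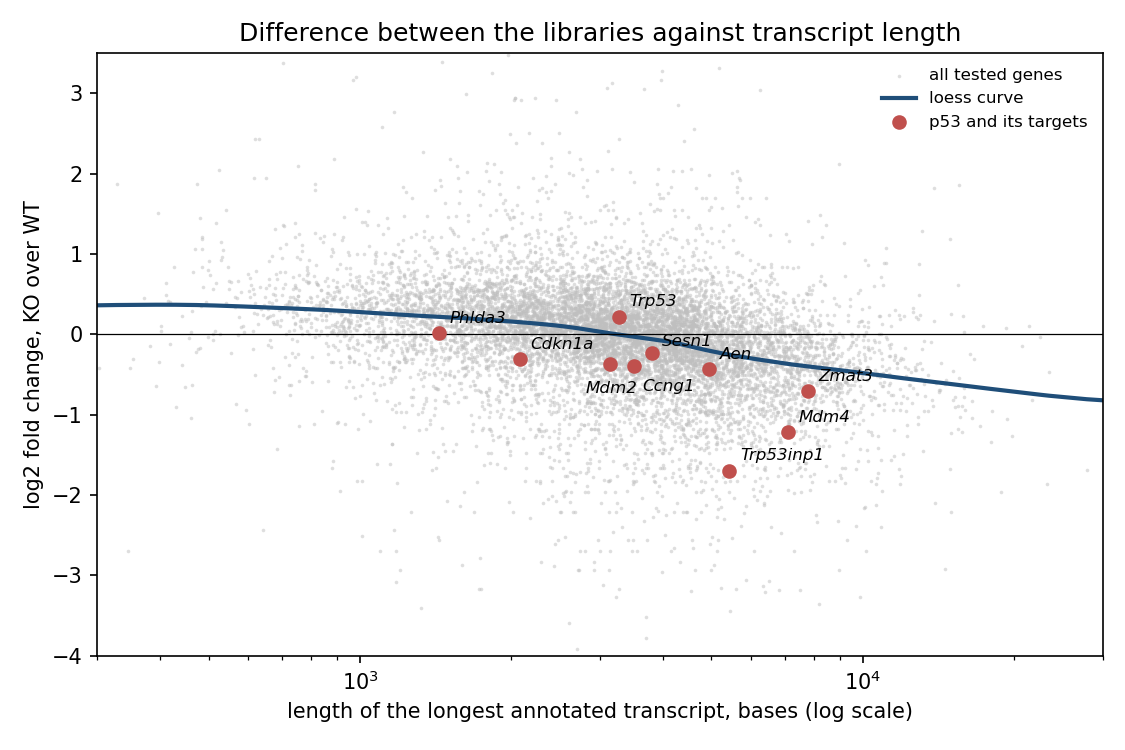
Log2 fold change (KO over WT) of tested genes against the length of the longest annotated transcript (log scale), with the loess curve and the 10 genes of the pathway named. 10724 genes are drawn and 69 lie outside the axes. *Trp53* lies above the curve and the other 9 genes of the pathway below it. *Trp53*, *Sesn1*, *Phlda3* and *Aen* lie within counting error of the curve. The curve follows the middle of all genes, whose median with the curve taken off was 0.00.

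Ratios of reads between genes of the same library, which need no scaling, showed the same spread. Of the 45 pairs of the 10 genes, 25 had a ratio that differed between the libraries by more than counting error, and 19 did after the length correction. *Trp53inp1* differed from 8 of its 9 partners and *Mdm4* from 7, whereas the ratio of *Mdm4* to *Trp53inp1* did not differ detectably (log2 difference 0.51, from -0.39 to 1.5). *Trp53* differed from 6 of its 9 partners, among them *Cdkn1a* (0.53, from 0.07 to 0.98). The 10 genes thus did not move by 1 common factor. Pairs of other genes were not counted, so this spread is not shown to be particular to the pathway. Among all genes tested, 25.0% had an interval below 0 and 23.5% above. The difference between *Mdm2* and *Mdm4* stood at 0.47 (from 0.24 to 0.71) with the length correction, while that between *Zmat3* and *Phlda3* went from -0.72 (from -0.97 to -0.47) to -0.11 (from -0.36 to 0.15).

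Levels were compared between genes as CPM per kilobase of the longest transcript (RPKM). In the WT library, *Ccng1* stood highest at 108 RPKM, followed by *Mdm2* at 51.3, *Phlda3* at 36.3, *Zmat3* at 33.6, *Mdm4* at 17.0, *Cdkn1a* at 13.3 and *Trp53* at 7.81 RPKM. *Sesn1* (1.70), *Trp53inp1* (1.38) and *Aen* (1.15 RPKM) were the lowest, and neighbours among these 3 did not differ beyond counting error, nor did *Phlda3* and *Zmat3*. In the KO library, *Ccng1* was again the highest at 82.5 RPKM, and *Mdm2* (39.7) and *Phlda3* (36.6 RPKM) no longer differed beyond counting error. *Mdm4*, at 7.26 RPKM, stood above *Cdkn1a* and *Trp53* in the WT library and below both in the KO library (10.7 and 9.08 RPKM), where the neighbours *Cdkn1a* and *Trp53*, and *Trp53* and *Mdm4*, had overlapping intervals. *Trp53inp1* was the lowest in the KO library at 0.417 RPKM, next to *Aen* at 0.848. With the union of all exons as the length, *Phlda3* stood above *Mdm2* in both libraries and *Trp53* above *Cdkn1a* in the KO library, so those places in the order depend on the gene model.

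The pathway around these genes was described from lists of known members. Among 30 upstream regulators of p53, which modify it, bind it or mark it for breakdown and which include *Mdm2* and *Mdm4*, 28 were tested, 4 were called lower and 0 higher (6.07% and 2.78% of all genes). An interval below 0 was found for 17 and above 0 for 3 (25.0% and 23.5% of all genes), and the median log2 fold change was -0.33. Beside *Mdm4*, the called genes were *Hipk2*, a kinase of p53 (141 and 43 reads in the WT and KO libraries, log2 fold change -1.60), *Pml*, the organiser of PML nuclear bodies (146 and 62 reads, -1.12), and *Cul9*, a cullin that binds p53 (288 and 123 reads, -1.12). These regulators have long transcripts (median 4236 bases), and with the length correction 1 was called lower (*Hipk2*, -1.20), 11 had an interval below 0 and 4 above (20.9% and 23.5% of all genes), and the median was -0.16. If cultures are given a coefficient of variation of 0.4, 0 were called. Of all 10881 genes tested, 158 were then called lower and 74 higher.

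Other targets of p53 lay on both sides of 0. For comparison with the counts of the 2 lists below, 6.07% of all genes tested were called lower and 2.78% higher. An interval below 0 was found for 25.0% of all genes and above 0 for 23.5%. Of 12 further targets in apoptosis, all were tested, 0 were called in either direction, 1 had an interval below 0 and 3 above, and the median was 0.00. Among them, named after their values were seen, the BCL2-family killers *Bax* (681 and 647 reads) and *Pmaip1* (387 and 334 reads) stood at 0.03 and -0.11 on the log2 scale. *Bbc3*, of the same family, had 389 and 297 reads and stood at -0.28 (from -0.51 to -0.06). The 3 with an interval above 0, also named after their values were seen, were *Trp53i13* (0.33, from 0.13 to 0.54), *Siva1* (0.47, from 0.07 to 0.88) and *Trp53inp2* (0.76, from 0.39 to 1.14). With the length correction 2 of the 12 had an interval below 0 and 1 above (20.9% and 23.5% of all genes), and the median was -0.12. *Bax* then stood at -0.23, *Pmaip1* at -0.18 and *Bbc3* at -0.46. *Trp53i13* came to 0.12, *Siva1* to 0.24 and *Trp53inp2* to 0.84. Of 34 further targets in arrest, repair and feedback, 30 were tested, 2 were called lower and 2 higher, 9 had an interval below 0 and 6 above, and the median was -0.20. *Pltp*, a phospholipid transfer protein, had 43 reads in the WT and 309 in the KO library (2.94, from 2.49 to 3.45), the furthest from 0 of these targets. *Ephx1*, an epoxide hydrolase, had 204 and 385 reads (1.02, from 0.77 to 1.27, and 0.83 with the length correction). *Ptpn14*, a phosphatase, had 37 and 14 reads (-1.27, from -2.30 to -0.38, and -0.76 with the length correction), and *Psrc1*, a spindle protein, 17 and 3 reads (-2.22, from -4.81 to -0.61). With the length correction 1 of these targets was called lower and 1 higher (4.98% and 2.76% of all genes), and the median was -0.22. *Psrc1* was not tested where each library had to hold 10 reads, which left 1 called lower, and the same assumed variation of 0.4 left 0 lower and 1 higher. At that variation, 158 of 10881 genes tested were called lower and 74 higher.

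p21 acts through the DREAM complex, which represses genes of the late cell cycle. Of 30 such genes, 22 were higher in the KO library beyond counting error, where 23.5% of all genes were. Of 30 cell-cycle genes known to be lowered through p21 and DREAM, all 30 were tested, and 8 were called higher and 0 lower (2.78% and 6.07% of all genes). An interval below 0 was found for 1 (25.0% of all genes), and 7 had an interval that included 0. The median log2 fold change was 0.67 (0.68 with the length correction, 8 called higher), and 0 were called if cultures are given a coefficient of variation of 0.4. At that coefficient, 158 of 10881 genes tested were called lower and 74 higher. *Plk1*, a kinase of mitosis, had 922 reads in the WT and 2356 in the KO library (1.46). *Ccnb1* (582 and 1348 reads, 1.32) and *Ccnb2* (435 and 982 reads, 1.28) encode B-type cyclins, and *Cdc20* (864 and 1990 reads, 1.31) activates the ligase that breaks them down. *Aurka* (499 and 1050 reads, 1.18) and *Nek2* (337 and 673 reads, 1.1) are kinases of the spindle poles, *Cdc25c* (70 and 156 reads, 1.25) is a phosphatase that starts mitosis, and *Cenpa* (633 and 1313 reads, 1.16) is the histone of centromeres. *Cdc25a*, a phosphatase that acts earlier in the cycle and was named after its values were seen, had the interval below 0 (630 and 483 reads, -0.28). *Cdkn1a* itself was not called, and whether the level of p21 had a part in these values was not tested.

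Among other CDK inhibitors, *Cdkn2d* had 854 and 1532 reads (log2 fold change 0.95, from 0.83 to 1.07) and *Cdkn2c* 125 and 202 reads (0.79, from 0.47 to 1.13). Both block CDK4 and CDK6 and were higher in the KO library by less than 2-fold, while *Cdkn1b*, which encodes p27, had 1033 and 1004 reads (0.06, from -0.06 to 0.19). The p53 relatives *Trp63* and *Trp73* and the inhibitor *Cdkn2b* had 0 reads in both libraries. *Cdkn2a*, whose alternative product restrains MDM2, had 0 reads in the WT and 3 in the KO library, and *Cdkn1c* had 1 and 0, so neither could be compared at this depth.

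**Figure D4:**
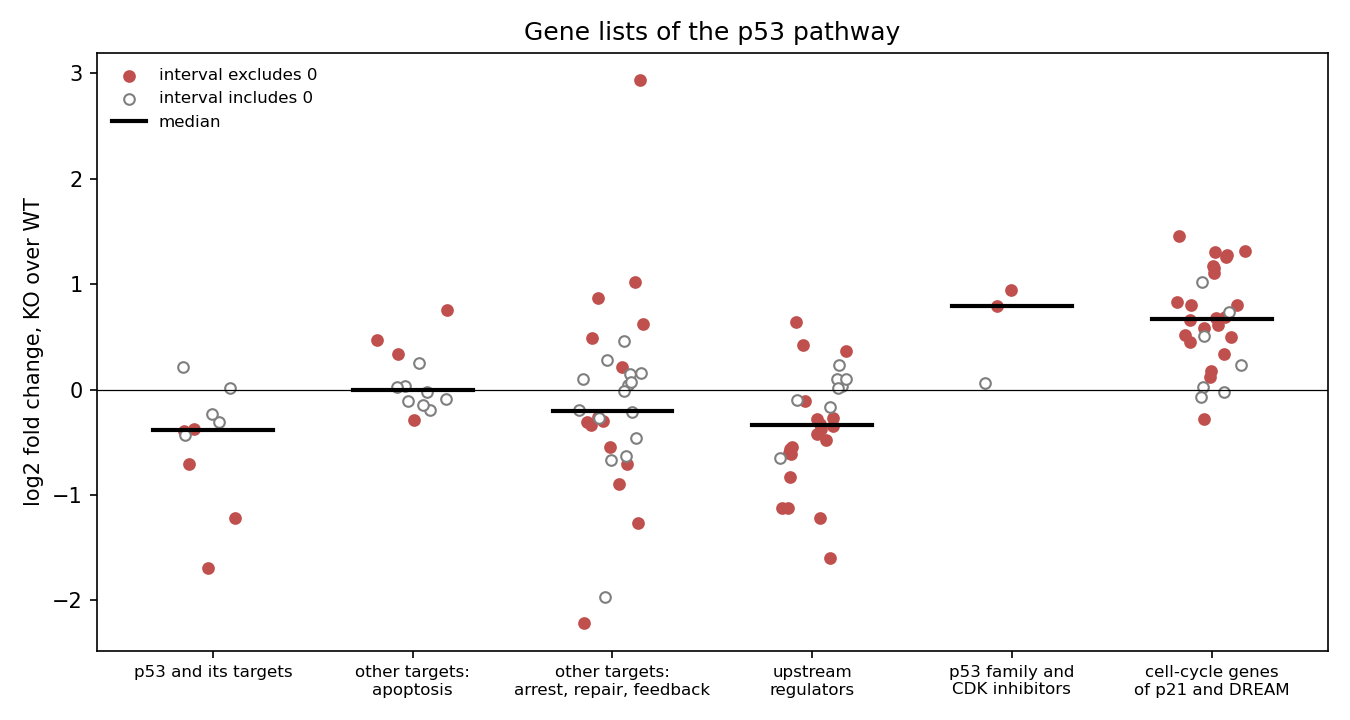
Log2 fold change (KO over WT) of the tested genes of each list, 1 point per gene, with the median of each list and a line at 0. The median of all genes tested, which is not drawn, was -0.02. The medians are -0.38 for p53 and its targets, -0.33 for upstream regulators, 0.00 for other targets in apoptosis, -0.20 for other targets in arrest, repair and feedback, and 0.67 for cell-cycle genes lowered through p21 and DREAM. The 3 tested genes of the p53 family and CDK inhibitors have a median of 0.79.

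Genes with and without a consensus match near the start were also compared across the whole table, as a description. Of 431 tested genes with a match of at most 2 mismatches, 5.80% were called lower and 2.55% higher, against 6.08% and 2.80% of 10398 tested genes without one. The median log2 fold changes were -0.05 and -0.02. Of 91 tested genes with at most 1 mismatch, 29.7% had an interval below 0 and 17.6% above, against 25.0% and 23.6% of the genes without a match, with a median of -0.12 (-0.09 with the length correction). By list, a match was found for 3 of 12 further targets in apoptosis, 8 of 34 in arrest, repair and feedback, 0 of 30 upstream regulators and 1 of 30 cell-cycle genes. The 3 genes of the pathway with a printed match, *Cdkn1a* (-0.31), *Ccng1* (-0.40) and *Zmat3* (-0.71), all had log2 fold changes below 0, of which that of *Cdkn1a* was within counting error. With the length correction they stood at -0.46, -0.37 and -0.31. Values below 0 were not particular to genes with a match. Without one, *Trp53inp1* (-1.70), *Mdm4* (-1.22), *Aen* (-0.43), *Mdm2* (-0.37) and *Sesn1* (-0.23) were also below 0. Those of *Aen* and *Sesn1* were within counting error. *Trp53* (0.22) and *Phlda3* (0.01), also without a match, were above 0 within counting error.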

How the data were processed

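RNA-seq was done on 1 WT and 1 KO Th17 library. The values are raw read counts per gene, not normalized, in the 2 tables that the authors deposited. According to the methods, reads were mapped to mm10 with SOAP2. The submitters' processing notes name bcl2fastq, HTSeq, Bowtie and SICER 1.1 for the series without saying which data each was used for. The annotation and strand setting of the counting are not given in the sources used here. A gene missing from 1 table was given 0 reads there, and 0 other per-sample columns were left unused. ChIP-seq samples were not analysed here.

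Counts were scaled by library totals after 0.5 was added, and log2 ratios were taken for genes with 10 or more reads in all. Exact 95% intervals came from the split of a gene's reads (SciPy 1.17.1), unadjusted for the number of genes. With 1 library per genotype, edgeR's quasi-likelihood fit leaves no residual degrees of freedom and was not run. Transcript lengths were taken from GENCODE M21, positions and sequence from RefSeq GRCm38.p6, and the loess curve from statsmodels 0.14.6 (span 0.3). *Cop1*, *Pidd1*, *Tigar* and *Trp53cor1* of the lists were matched through their older symbols in the tables. The p53 consensus reads the same on both strands, so 1 search covers both. The calculations were tested on simulated data.

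The genes and lists were chosen with earlier results of these data known. Genes named were all 10 of the pathway, of each other list the called genes (at most the 8 with the most reads), the p53 relatives and CDK inhibitors, and paralogs with at least 100 reads. The alternatives were TMM factors (edgeR 4.0.16), DESeq2 1.42.0 size factors, upper-quartile scaling, 5 in place of 0.5 added, 2 other filters, length or GC curves, a fold limit of 1.5, assumed coefficients of variation between cultures of 0.1, 0.2 and 0.4, union exon length, and a stricter or narrower site search. Python 3.11.15 and R 4.3.3 were used.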

Additional observations from a re-analysis of the deposited data

How the results depend on the processing

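No paired analysis was possible because there is 1 library per genotype, and for the same reason no library could be left out. The number of genes of the pathway called lower was 1 with the length correction and 0 with an assumed coefficient of variation of 0.4, in place of 2. The number with an interval below 0 was 3, 2 and 0 with coefficients of variation of 0.1, 0.2 and 0.4, in place of 5. How many of all genes had such an interval at these coefficients was not counted, so these numbers have no background beside them. *Phlda3*, whose interval included 0 throughout, turned from 0.01 to -0.20 with the length correction and to -0.10 with the GC correction. Of 110 values of single genes under the alternatives, 96 kept their direction and their side of 0, 10 were no longer set apart from 0, 2 became so (both *Cdkn1a*, at -0.46 with the length and -0.36 with the GC correction) and 2 turned. Part of the 96 was fixed in advance. The 2 other filters could not change these genes, and the added count does not enter the exact intervals. The assumed coefficients of variation change the intervals only. TMM, DESeq2 and upper-quartile scaling shifted every gene by at most 0.025 on the log2 scale and changed no call of the 10 genes. Over all genes, 660 were called lower and 302 higher, against 538 and 298 with the length correction and 403 and 188 where each library had to hold 10 or more reads. With a coefficient of variation of 0.4 they were 158 and 74 of 10881 genes tested, and at 1.5-fold 1357 and 816. Among the other lists, a coefficient of variation of 0.4 left 0 of the 4 upstream regulators and 0 of the 8 cell-cycle genes called, and the GC correction gave 1 in place of 2 targets in arrest, repair and feedback called higher. Depth limited *Trp53inp1*, *Sesn1* and *Aen*, which had between 14 and 50 reads in a library.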

Other observations

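Paralogs of the p53 targets lay on both sides of 0. Of 14 such genes, 9 were tested and 0 were called, where 6.07% of all genes were called lower and 2.78% higher. An interval below 0 was found for 3 and above 0 for 4 (25.0% and 23.5% of all genes). Their median log2 fold change was 0.16 (-0.01 with the length correction). *Sesn3*, a sestrin like *Sesn1*, had 2087 reads in the WT and 1324 in the KO library (-0.55, from -0.65 to -0.45), which came to -0.10 with the length correction, and *Sesn2* had 340 and 251 reads (-0.33, from -0.57 to -0.09). *Ccng2*, the relative of *Ccng1*, had 1147 and 1229 reads (0.20, from 0.09 to 0.32), where *Ccng1* was lower. *Trp53inp2* had 97 and 153 reads (0.76, from 0.39 to 1.14), where *Trp53inp1* was lower. *Zmat5* (141 and 249 reads, 0.92) and *Zmat2* (757 and 925 reads, 0.39) were higher, where *Zmat3* was lower. With the length correction the contrasts of the *Zmat* genes were smaller, with *Zmat5* at 0.61, *Zmat2* at 0.27 and *Zmat3* at -0.31. That of the cyclins was not, with *Ccng2* at 0.35 and *Ccng1* at -0.37. *Trp53inp2* then stood at 0.84 and *Trp53inp1* at -1.44. *Isg20l2*, a relative of *Aen*, had 908 and 724 reads (-0.22, from -0.36 to -0.08), and *Phlda1* had 240 and 249 reads (0.16).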
